A study of Homo sapiens with 36 samples.

Results

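The genes described here are 8 aldo-keto reductases (AKR1A1, AKR1B1, AKR1B10, AKR1B15, AKR1C1, AKR1C2, AKR1C3 and AKR1C4) and the aldehyde dehydrogenase ALDH3A1, 9 of the 20046 gene symbols on the array. They were picked by symbol, and by values: several of them were among the largest differences between shControl and wild type cells and between the ATM, ATR, CHK1 and CHK2 lines and shControl. Those contrasts are therefore described here with no p-value, and so are the sh53BP1 lines against shControl, which share its arrays. The sh53BP1 lines against wild type share the wild type arrays with a contrast that chose the genes, and their p-values are a description. Of the 9 genes, 7 had a probe under their symbol, 13 probes in all, and AKR1A1 and AKR1B1 had none. A probe counted as above background on an array when its detection p was under 0.01, and 10 of the 13 probes passed on every array of some group and were tested. Of those 10, 3 passed through shControl alone, so they had to differ between shControl and the rest. The threshold fell among neighbouring values: AKR1B10 on 1 shATR-3 array had a log2 signal of 5.38 with a detection p of 0.00779 and was inside it, and on 1 shATM-1 array it had 5.38 with a detection p of 0.0143 and was outside.

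Messenger RNA was measured on 36 Illumina expression arrays in 12 groups of 3 labelled biological replicates, all of cells labelled MCF-10A, a non-transformed human mammary epithelial line. Of these groups, 8 stably carried a lentiviral short hairpin named for a checkpoint kinase: shATM-1, shATM-3, shATR-3, shATR-4, shCHK1-3, shCHK1-4, shCHK2-1 and shCHK2-2. The lines sh53BP1-1 and sh53BP1-2 carried a hairpin named for the repair adaptor 53BP1, shControl carried a scrambled hairpin, and the wild type cells had mock treatment only. Each line is a single stable line, the labels do not say whether it was a clone or a pool, and 200000 cells per plate were grown for 48 hours. p-values therefore measure the spread between 3 cultures of a line.

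Several lines went against their labels. MTAP, a gene of the 9p21 region that the MCF-10A line is known to lack, had mean log2 signals of 9.22 to 10.31 in the 8 kinase lines, against 4.61 to 4.79 in the 4 other groups. Together with 2 CDKN2A probes it was above background on 24 of 24 kinase arrays and on 0 of the 12 others, so the origin of the cells and the hairpin cannot be told apart in any contrast of a kinase line with shControl or wild type. CHEK2 was lower than in shControl in shCHK2-1 by a log2 difference of -0.99 (SE 0.19), and in the line labelled shCHK2-2 it differed by -0.10 (SE 0.19, adjusted p = 0.66). ATM, CHEK1 and TP53BP1 passed the test as lower in both of their lines (log2 differences of -0.90 and -1.03, -0.25 and -0.27, and -2.64 and -2.34), and ATR had no probe above background in a whole group. Arrays had 33.5% to 38.3% of probes above background and replicates correlated at 0.984 or more. The epithelial marker CDH1 was above background on 36 of 36 arrays. Of the leukocyte markers, PTPRC and CD3E were above background on 0 of 36 arrays and CD68 on 36. Of the fibroblast markers, COL3A1 and PDGFRB were so on 0 of 36, and no probe of COL1A1, COL1A2, DCN or LUM on more than 5. The endothelial marker PECAM1 was above background on 0 of 24 kinase arrays and on 12 of the 12 others, and CDH5 on 0 of 24 and 4 of 12. The part of these markers in the differences between the kinase lines and the other groups was not tested.

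Aldo-keto reductases are soluble enzymes that use NADPH to reduce aldehydes and ketones to alcohols. AKR1A1 is aldehyde reductase, AKR1B1 is aldose reductase, the first enzyme of the polyol pathway, and AKR1B10 reduces retinal and reactive aldehydes. AKR1B15 is its close paralog. The AKR1C enzymes reduce steroids at several positions: AKR1C1 inactivates progesterone, AKR1C2 inactivates dihydrotestosterone, AKR1C3 makes testosterone and prostaglandin F2alpha, and AKR1C4 is the form best known from liver. ALDH3A1 works in the opposite direction and oxidises aldehydes to acids, and is best known from the corneal epithelium. Many of these genes are known targets of NRF2, the transcription factor of the antioxidant response, and ALDH3A1 is also a known target of the aryl hydrocarbon receptor.

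The 4 AKR1C genes lie side by side on chromosome 10, between positions 4963415 and 5218949 of GRCh38.p14, and AKR1B10 and AKR1B15 are neighbours on chromosome 7 (134527567 to 134579869). The 250 bases before 5 annotated AKR1C starts are shown because the brightest AKR1C2 probe and the AKR1C3 and AKR1C4 probes moved together. They come from RefSeq (GRCh38.p14), written 5′ to 3′ on the gene's strand: AKR1C1 at chr10:4963165-4963414 (plus), AKR1C2 at chr10:5003858-5004107 (minus), AKR1C3 from its distal start at chr10:5048531-5048780 (plus) and from its proximal start at chr10:5094164-5094413 (plus), and AKR1C4 at chr10:5196587-5196836 (plus). The AKR1C2 window lies within the gene, which reaches position 5018000, and the bases beyond that end are not shown. Capitals mark the letters ATTGG, which read CCAAT on the opposite strand.
AKR1C1: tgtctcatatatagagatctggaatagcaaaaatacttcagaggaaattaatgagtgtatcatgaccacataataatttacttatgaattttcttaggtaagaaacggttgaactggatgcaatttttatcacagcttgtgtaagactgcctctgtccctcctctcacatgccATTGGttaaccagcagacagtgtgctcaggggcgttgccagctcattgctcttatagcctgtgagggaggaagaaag
AKR1C2: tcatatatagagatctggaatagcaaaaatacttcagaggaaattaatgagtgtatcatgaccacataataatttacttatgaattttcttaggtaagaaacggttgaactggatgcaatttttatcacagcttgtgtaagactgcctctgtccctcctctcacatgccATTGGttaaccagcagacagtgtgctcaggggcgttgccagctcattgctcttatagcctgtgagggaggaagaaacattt
AKR1C3 distal: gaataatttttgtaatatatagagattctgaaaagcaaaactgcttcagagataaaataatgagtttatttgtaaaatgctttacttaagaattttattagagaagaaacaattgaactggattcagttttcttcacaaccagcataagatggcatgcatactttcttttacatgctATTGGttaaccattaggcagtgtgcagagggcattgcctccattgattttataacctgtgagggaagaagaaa
AKR1C3 proximal: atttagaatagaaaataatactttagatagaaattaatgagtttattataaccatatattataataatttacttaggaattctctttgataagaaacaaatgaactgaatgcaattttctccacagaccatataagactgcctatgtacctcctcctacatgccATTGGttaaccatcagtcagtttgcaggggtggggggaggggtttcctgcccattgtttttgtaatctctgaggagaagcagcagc
AKR1C4: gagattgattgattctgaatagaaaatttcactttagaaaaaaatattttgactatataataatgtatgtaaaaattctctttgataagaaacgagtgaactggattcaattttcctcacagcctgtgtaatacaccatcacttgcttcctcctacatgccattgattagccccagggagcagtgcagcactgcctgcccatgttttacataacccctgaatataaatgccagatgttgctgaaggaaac
The windows of AKR1C1 and AKR1C2 were identical at 245 of 254 aligned columns (96.5%), and every other pair was between 60.6% and 72.4% identical. CCAAT, searched on both strands, occurred once in each of the windows of AKR1C1, AKR1C2 and both AKR1C3 starts, 77, 81, 73 and 86 bases before the start, and not in that of AKR1C4. It occurred in 32% of 35116 RefSeq promoter windows of that length. The letters TGACNNNGC, the core of the antioxidant response element, were in 10.9% of those windows and in none of the 5 shown. GCGTG, the core of the dioxin response element, was in 32.2% and in none of the 5. A match, or the lack of one, is a description of these letters only, and bases outside these windows were not searched. AKR1B10, AKR1B15 and ALDH3A1 are named here without a promoter.

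In shControl the AKR1B pair and ALDH3A1 stood far above wild type, while the brightest AKR1C2 probe and the AKR1C3 and AKR1C4 probes were high in both. Of the 10 probes above background, 9 passed the threshold as higher in shControl, in a contrast where 12% of all 18905 probes did so; the contrast was among those that chose the genes, so nothing is read from the count. AKR1B10, the retinal reductase, had normalized log2 signals of 12.19, 12.04 and 12.43 in shControl, against 8.03, 8.02 and 7.83 in wild type, 19.1-fold higher. ALDH3A1, the aldehyde dehydrogenase, read 11.91, 11.79 and 11.71 in shControl, against 7.76, 7.69 and 7.61 in wild type, 17.3-fold higher. For both genes every shControl array lay above every array of the 11 other groups. AKR1B15 read 10.84, 10.75 and 11.04 in shControl, against 7.48, 7.37 and 7.34 in wild type, 11.1-fold higher, and its groups did not overlap either.

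The AKR1C genes differed less between shControl and wild type. AKR1C3, the prostaglandin F and testosterone synthase, had log2 signals of 14.26, 14.35 and 14.27 in shControl, against 13.34, 13.28 and 13.17 in wild type (log2 difference 1.03, SE 0.13, 2.04-fold). AKR1C4 read 14.42, 14.36 and 14.47 in shControl, against 13.76, 13.76 and 13.65 in wild type (log2 difference 0.69, SE 0.11, 1.62-fold). In both genes the shControl arrays lay above the wild type arrays. The brightest AKR1C2 probe read 14.37, 14.24 and 14.40 in shControl, against 14.44, 14.28 and 14.26 in wild type, and these arrays overlapped (log2 difference 0.01, SE 0.13).

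The AKR1C2 probes disagreed with each other in this contrast. The probe ILMN_1773417 had log2 signals of 9.01, 8.90 and 8.98 in shControl, against 6.44, 6.87 and 6.90 in wild type, a log2 difference of 2.22 (SE 0.16, 4.67-fold). The probes ILMN_1719154 and ILMN_3237488 were above background on the 3 shControl arrays alone (7.11, 7.01 and 6.77, and 6.36, 6.77 and 6.71). ILMN_1668617 read 6.15, 5.99 and 5.94 in shControl, against 1 wild type array above background at 5.38. Being above background on every shControl array and on no other array was true of 71 of 18905 probes (0.376%). The sixth AKR1C2 probe, the AKR1C1 probe and the second AKR1C4 probe were above background on none of the 36 arrays.

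The brightest AKR1C2 probe, ILMN_2412336, was close to the top of the array. Its signal before normalization was 22528, 15811 and 18694 intensity units in shControl, against 18992, 19081 and 17963 in wild type. On those arrays the brightest probe of all read 28631, 21876 and 23108 in shControl, against 24038, 24017 and 24939 in wild type. Only 53 to 147 probes were brighter on a shControl array and 36 to 135 on a wild type array. In shControl the AKR1C4 probe was as close to the top: 23454, 16919 and 19817 units in shControl, against 12622, 13794 and 11578 in wild type, with 25 to 75 probes brighter on a shControl array and 349 to 385 on a wild type array. AKR1C3 read 21278, 16844 and 17121 units in shControl, against 9130, 9788 and 8165 in wild type, with 82 to 132 and 505 to 570 probes brighter. Whether saturation narrowed the differences of these 3 probes was not tested. The AKR1C genes are paralogs of similar sequence, the probe letters were not used here, and how much of one gene's signal came from its neighbours was not tested. The AKR1C4 values in particular are those of a probe annotated to a gene best known from liver. Of the hepatocyte markers, APOA1 and TTR were above background on 0 of 36 arrays. The ALB probes disagreed: ILMN_1782939 was above background on 35 arrays and ILMN_1682763 on 0.

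**Figure D1:**
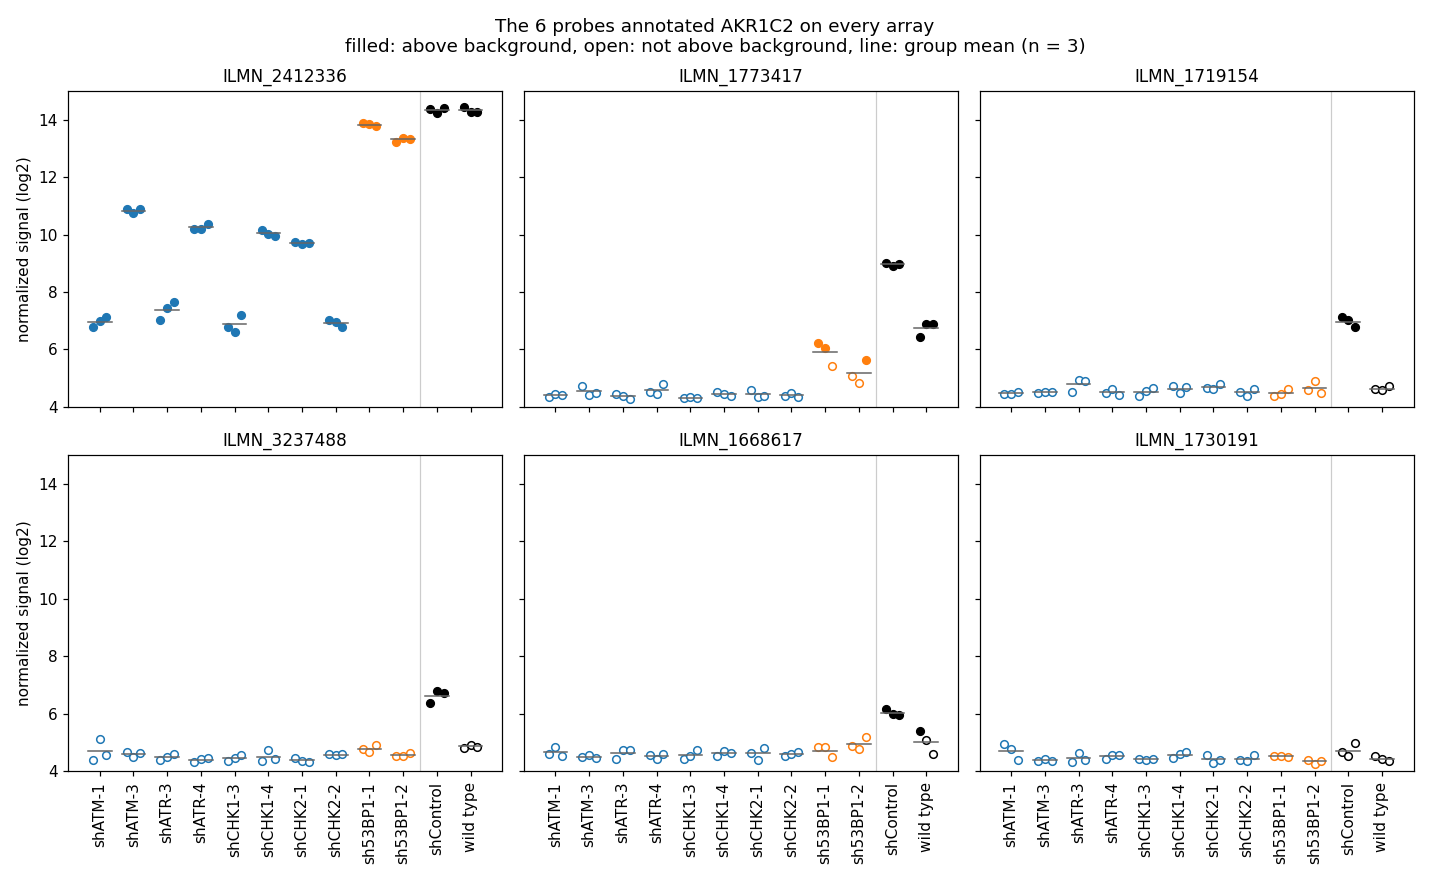
Normalized log2 signal (y axis) of the AKR1C2 probes in each of the 12 groups, 1 point per array, open where the probe was not above background. One probe is near 14.33 in shControl and 14.32 in wild type, while ILMN_1773417 averages 2.22 log2 units higher in shControl.

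Against shControl, all 8 kinase lines were far lower for every measured gene of the set. Of the 10 probes, 10 passed as lower in all 8 lines, where 16.4% of all probes did so; this contrast too was among those that chose the genes, so nothing is read from the count. The brightest AKR1C2 probe was between 11.3-fold (shATM-3) and 177-fold (shCHK1-3) lower, and its 24 kinase arrays read 6.60 to 10.88, against 14.24 to 14.40 in shControl. AKR1C3 was 12.96-fold (shATM-3) to 111-fold (shCHK1-3) lower and AKR1C4 12.2-fold (shATM-3) to 137-fold (shCHK2-2) lower. For all 3 the larger differences were in shATM-1, shATR-3, shCHK1-3 and shCHK2-2, the 4 low lines. The other AKR1C2 probes were not above background on the kinase arrays, and ILMN_1773417 was at least 11.58-fold to at least 13.05-fold lower. For ALDH3A1 the difference was at least 83.1-fold to at least 88.4-fold in the low lines, where none of the 12 arrays was above background. It was 64.1-fold (shATM-3), 56.1-fold (shATR-4), at least 62.1-fold (shCHK1-4, 2 of 3 arrays above background) and at least 83.6-fold (shCHK2-1, 1 of 3) lower in the rest, and so was near or below detection in every kinase line. For AKR1B10 it was at least 115-fold in shATM-1 and at least 111-fold in shCHK2-2, and also at least 111-fold in shATR-3 and in shCHK1-3, each with 2 of 3 arrays above background. In the other 4 kinase lines AKR1B10 was 28.3-fold (shATM-3), 23.0-fold (shATR-4), 49.6-fold (shCHK1-4) and 38.2-fold (shCHK2-1) lower. The low lines thus stood further below shControl than their partners did for AKR1B10 as for the AKR1C genes. AKR1B15 was at least 43.7-fold to at least 46.5-fold lower in the low lines, 27.9-fold in shATM-3 and 28.8-fold in shATR-4. Where a gene was not above background on all 3 arrays of a group, the fold was taken against the lowest detected signal of each array, a log2 value between 5.19 and 5.58, or against the array's own value where that was higher. These sizes depend on the background: in the deposited values, which keep it, the log2 differences were -3.99 to -5.34 for AKR1B10, in place of -4.52 to -7.55. They were -4.50 to -5.03 for ALDH3A1, in place of -5.81 to -7.29, and -2.35 to -2.54 for ILMN_1773417, in place of -4.37 to -4.65.

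Setting the kinase lines against wild type removes the high AKR1B and ALDH3A1 level of shControl from the comparison. Of the 10 probes, 7 were lower than in wild type in all 8 lines, where 15.1% of all probes were. Both sides of this contrast stood in contrasts that chose the genes, so it is a description and nothing is read from the count. Of these 7, the AKR1C2 probe ILMN_1668617 was above background on 1 wild type array and on no kinase array, so its differences have no measured size. The exception for AKR1B10 was shATR-4, which had log2 signals of 7.70, 7.70 and 7.68, against 8.03, 8.02 and 7.83 in wild type (log2 difference -0.27). Its 3 arrays lay below those of wild type but the difference did not pass the threshold. AKR1C2 (the brightest probe) in shATR-4 read 10.19, 10.20 and 10.37, against 14.44, 14.28 and 14.26 in wild type. The AKR1C genes thus stood further below wild type in shATR-4 than AKR1B10 did.

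**Figure D2:**
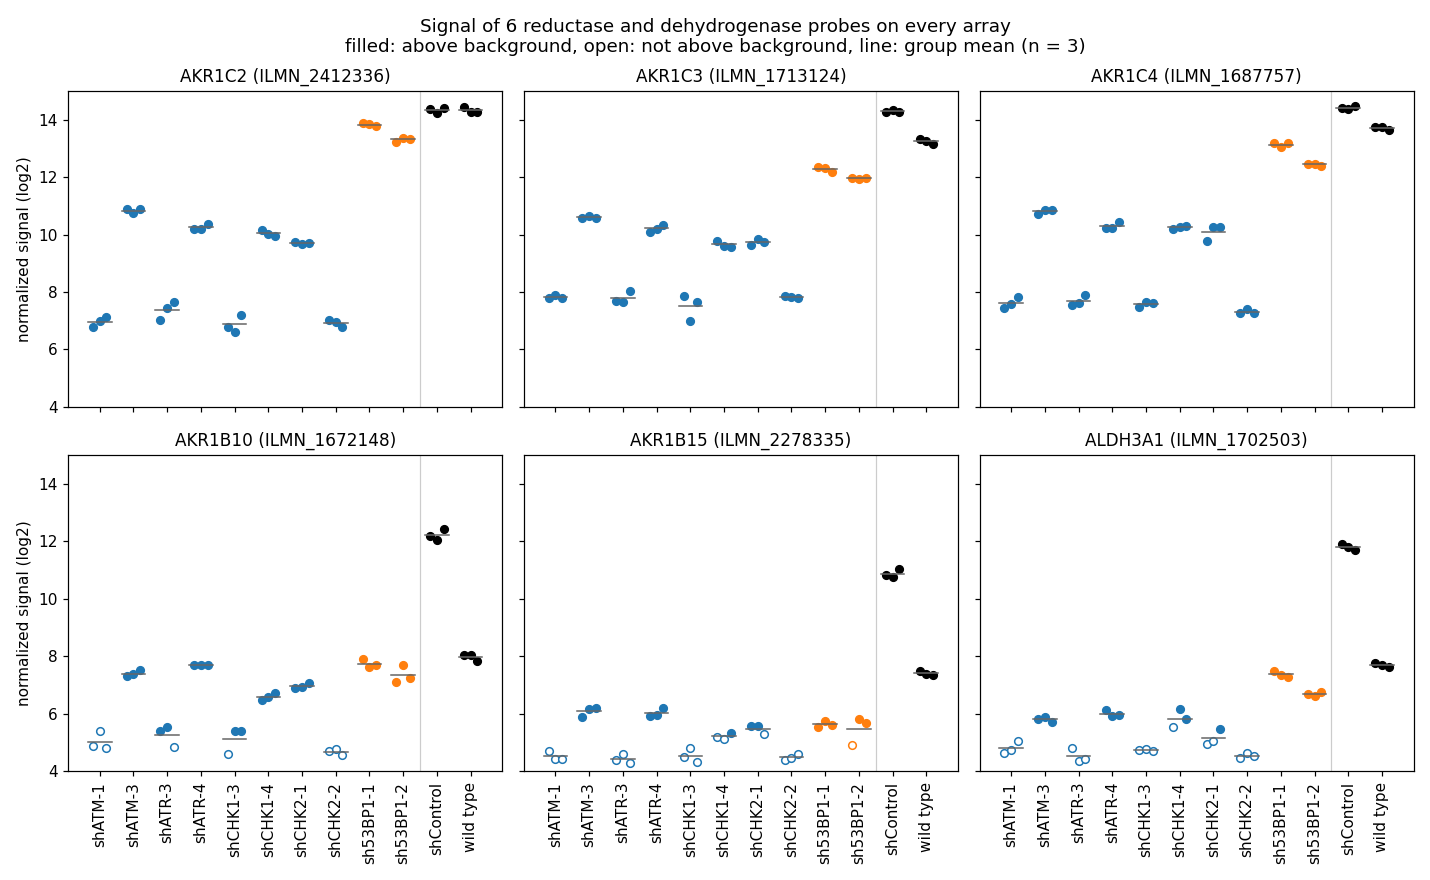
Normalized log2 signal (y axis) of AKR1C2, AKR1C3, AKR1C4, AKR1B10, AKR1B15 and ALDH3A1 on each of the 36 arrays by group (x axis), with the group mean as a bar and open points where a probe was not above background. AKR1C2 reads 6.60 to 10.88 in the kinase lines, 13.24 to 13.88 in the sh53BP1 lines, and 14.24 to 14.44 in shControl and wild type; AKR1B10, AKR1B15 and ALDH3A1 are highest in shControl.

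Within the kinase lines the same genes separated the hairpins of one target. In each of the 4 pairs, 6 of the 10 probes differed: AKR1C2 (the brightest probe), AKR1C3, AKR1C4, AKR1B10, AKR1B15 and ALDH3A1. They were lower in shATM-1 than in shATM-3 (21% of all probes were), lower in shATR-3 than in shATR-4 (19.9%), lower in shCHK1-3 than in shCHK1-4 (16.9%) and higher in shCHK2-1 than in shCHK2-2 (22.1%). All 4 differences had that direction in 6 of the 10 probes and in 7.66% of all probes, a direction that was taken from these genes. The 4 other probes were AKR1C2 probes that were not above background on any of the 24 kinase arrays. All 4 pairs are given without p-values, because the levels of these lines against shControl were among the values that chose the genes, and nothing is read from the counts.

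AKR1C2, which inactivates dihydrotestosterone, had log2 signals of 6.79, 6.99 and 7.13 in shATM-1, against 10.88, 10.74 and 10.87 in shATM-3 (log2 difference -3.86, 14.5-fold). In the ATR pair it read 7.03, 7.45 and 7.64 in shATR-3, against 10.19, 10.20 and 10.37 in shATR-4 (log2 difference -2.88, 7.35-fold). The arrays of the hairpins did not overlap in either pair. In the CHK1 pair it read 6.80, 6.60 and 7.21 in shCHK1-3, against 10.15, 10.04 and 9.95 in shCHK1-4, a log2 difference of -3.18 (SE 0.13). In the CHK2 pair it read 9.74, 9.68 and 9.70 in shCHK2-1, against 7.01, 6.96 and 6.77 in shCHK2-2, a log2 difference of 2.79 (SE 0.13). Lines labelled with 4 different targets thus shared a low level near 7, and the 4 others a level near 10.

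AKR1C3 and AKR1C4 had the same split. AKR1C3 read 7.86, 6.98 and 7.66 in shCHK1-3, against 9.78, 9.62 and 9.57 in shCHK1-4 (log2 difference -2.16, SE 0.13). It read 9.64, 9.84 and 9.73 in shCHK2-1, against 7.87, 7.84 and 7.78 in shCHK2-2 (log2 difference 1.91, SE 0.13). Neither pair overlapped, although 1 shCHK1-3 array lay well below the other two. In the ATM pair AKR1C3 read 7.78, 7.90 and 7.78 in shATM-1, against 10.57, 10.65 and 10.57 in shATM-3, and in the ATR pair 7.69, 7.65 and 8.03 in shATR-3, against 10.09, 10.21 and 10.35 in shATR-4. AKR1C4 differed by -3.20, -2.60, -2.67 and 2.79 log2 units in the ATM, ATR, CHK1 and CHK2 pairs. These are close to the differences of the AKR1C2 probe, and the shared origin of their signal was not tested.

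AKR1B10 crossed the background in the lower lines. It was above background on 0 of 3 arrays of shATM-1 (4.88, 5.38 and 4.81), against 3 of 3 in shATM-3 (7.31, 7.37 and 7.50), at least 4.07-fold lower. It read 5.38, 5.53 and 4.83 in shATR-3, with 2 of the 3 arrays above background, against 7.70, 7.70 and 7.68 in shATR-4 (log2 difference -2.44, SE 0.18). It was at least 4.81-fold lower in shATR-3. In both pairs the low arrays sat at the edge of detection, and the groups did not overlap. The CHK1 pair had 4.58, 5.40 and 5.40 in shCHK1-3, again with 2 of 3 arrays above background, against 6.46, 6.59 and 6.70 in shCHK1-4, at least 2.23-fold lower (log2 difference -1.46, SE 0.18). The CHK2 pair had 6.90, 6.92 and 7.07 in shCHK2-1, against 4.69, 4.76 and 4.56 in shCHK2-2, none of them above background, at least 2.90-fold higher. The split of the retinal reductase therefore ran in the same direction as that of the AKR1C genes, and its size has only a lower bound in each pair. In the deposited values the log2 differences of AKR1B10 were -1.03, -1.16, -0.56 and 0.89 in the ATM, ATR, CHK1 and CHK2 pairs, less than the fitted -2.37, -2.44, -1.46 and 2.29.

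ALDH3A1 and AKR1B15 were at or under the edge of detection in the low lines. ALDH3A1 was above background on no array of shATM-1 (4.61, 4.71 and 5.03), against all 3 of shATM-3 (5.82, 5.86 and 5.72), at least 1.35-fold lower. It was above background on no array of shATR-3 either (4.79, 4.34 and 4.41), against all 3 of shATR-4 (6.11, 5.91 and 5.97), at least 1.58-fold lower. In shCHK1-3 it read 4.73, 4.77 and 4.70, none above background, against 5.52, 6.16 and 5.79 in shCHK1-4, of which 2 were, at least 1.39-fold lower. The arrays did not overlap in these 3 pairs, and the size of the differences has only these lower bounds. In shCHK2-1 it was above background on 1 of 3 arrays (4.96, 5.03 and 5.47), against none in shCHK2-2 (4.45, 4.62 and 4.51), and no bound above 1 could be given. AKR1B15 was at least 1.63-fold lower in shATM-1 than in shATM-3 and at least 1.61-fold lower in shATR-3 than in shATR-4. At this signal the size of the AKR1B15 difference in the CHK1 and CHK2 pairs could not be measured. In the deposited values the pair differences lay between 0.22 and -0.53 for ALDH3A1 and between 0.35 and -0.60 for AKR1B15, against fitted values of 0.63 to -1.48 and 0.99 to -1.61.

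**Figure D3:**
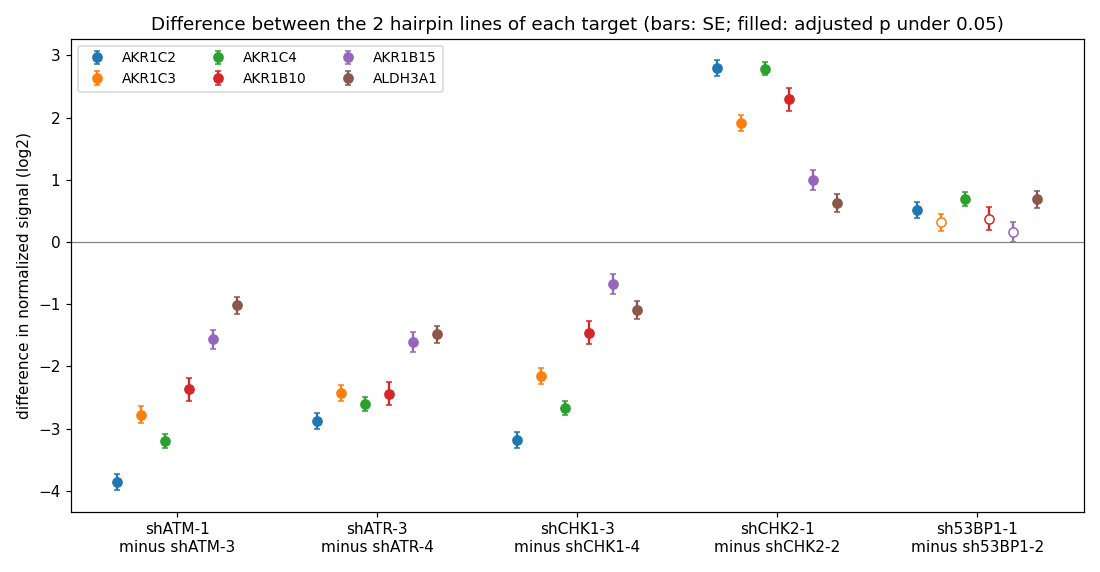
Log2 difference between the hairpins of each target (y axis), by pair (shATM-1 minus shATM-3, shATR-3 minus shATR-4, shCHK1-3 minus shCHK1-4, shCHK2-1 minus shCHK2-2 and sh53BP1-1 minus sh53BP1-2) for each gene, with its standard error. For AKR1C2 the values are -3.86, -2.88, -3.18, 2.79 and 0.52; open points did not pass the threshold.

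Other measures moved with this split. KRT14, a keratin of basal epithelium, differed by -2.67, -3.16, -1.74 and 3.02 log2 units in the ATM, ATR, CHK1 and CHK2 pairs, and KRT5 by -1.03, -0.88, -0.34 and 1.21. Of the 4 measured basal markers, KRT5, KRT14 and LAMB3 passed in all 4 pairs in the direction of the AKR1C genes, and ITGA6 in 3. Their summed level, on the log2 scale, lay between 12.82 and 13.52 on the 12 arrays of shATM-1, shATR-3, shCHK1-3 and shCHK2-2, against 13.93 to 14.47 on those of shATM-3, shATR-4, shCHK1-4 and shCHK2-1. It lay between 13.37 and 13.54 in the sh53BP1 lines, 12.52 and 12.61 in shControl, and 12.86 and 12.94 in wild type. The keratin KRT15 is not in this sum or in the marker lists. It was named because its profile was the nearest of all other genes to AKR1C2 and AKR1C4, so nothing is read from its split. KRT15 averaged 13.95 in shControl and 14.24 in wild type. It averaged 7.79 (shCHK2-2) to 8.38 (shCHK1-3) in the low lines, against 11.17 (shCHK1-4) to 12.47 (shATM-3) in the other kinase lines. For 3 epithelial markers (CDH1, EPCAM and KRT18) the summed level overlapped between the sets of kinase lines (13.19 to 13.41, against 12.99 to 13.56). Singly, EPCAM and KRT18 passed in the ATM pair (log2 differences of 0.27 and 0.38) and the CHK2 pair (-0.46 and -0.50). Their direction was opposite to that of the AKR1C genes, and neither passed in the ATR or CHK1 pair. CDH1 passed in the ATR pair alone (-0.83), in the direction of the AKR1C genes. The share of probes above background was 33.6% to 37.9% in the lower lines, against 33.5% to 38.3% in the others. The part of the basal markers in the result was not tested, and fewer cells with these transcripts cannot be told apart from less of them per cell.

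The brightest AKR1C2 probe, AKR1C3 and AKR1C4 in the sh53BP1 lines stood within 2.45-fold of wild type, and the lines lacked the high AKR1B and ALDH3A1 level of shControl. Against shControl, all 10 probes were lower in both lines, where 21.7% of all probes were, with log2 differences of -0.50 and -1.02 for the brightest AKR1C2 probe and -4.50 and -4.87 for AKR1B10 (sh53BP1-1 and sh53BP1-2). Against wild type, 5 probes were lower in sh53BP1-1 (23.9% of all probes) and 7 in sh53BP1-2 (21.9%), and 5 in both (18%). This contrast does not use the shControl arrays, but its wild type arrays stood in a contrast that chose the genes. Its counts and p-values are therefore given as a description only. AKR1C3 read 12.35, 12.33 and 12.17 in sh53BP1-1 and 11.97, 11.95 and 11.98 in sh53BP1-2, against 13.34, 13.28 and 13.17 in wild type. Its log2 differences were -0.98 and -1.29 (SE 0.13 each, limma adjusted p = 5.43e-07 and 4.82e-09), and the arrays did not overlap. AKR1C4 differed from wild type by -0.59 and -1.28 (limma adjusted p = 6.97e-05 and 1.69e-10). For AKR1C2, the brightest probe differed by -0.49 and -1.01 (limma adjusted p = 0.00216 and 1.97e-07), but in sh53BP1-1 it did not pass under 75th-percentile scaling (0.0618).

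AKR1B10 was close to wild type in sh53BP1-1. It read 7.89, 7.61 and 7.67 in sh53BP1-1 and 7.11, 7.71 and 7.22 in sh53BP1-2, against 8.03, 8.02 and 7.83 in wild type. The sh53BP1-1 arrays overlapped those of wild type (log2 difference -0.24, limma adjusted p = 0.295), and the sh53BP1-2 arrays did not (-0.61, limma adjusted p = 0.00788, but 0.0551 without sh53BP1-2 replicate 1). Its paralog AKR1B15 was lower in both lines: it read 5.53, 5.74 and 5.60 in sh53BP1-1 and 4.89, 5.82 and 5.66 in sh53BP1-2, against 7.48, 7.37 and 7.34 in wild type. The log2 differences were -1.78 and -1.94 (SE 0.16 each, limma adjusted p = 2.57e-10 and 5.63e-11), 1 sh53BP1-2 array being below background, so that AKR1B15 was at least 3.29-fold lower there. In the deposited values the AKR1B15 differences were -0.85 and -0.90. ALDH3A1 read 7.47, 7.34 and 7.29 in sh53BP1-1 and 6.67, 6.60 and 6.76 in sh53BP1-2, against 7.76, 7.69 and 7.61 in wild type. It passed in sh53BP1-2 (-1.01, SE 0.14, limma adjusted p = 6.86e-07) and not in sh53BP1-1 (-0.32, SE 0.14, limma adjusted p = 0.0549), although no sh53BP1-1 array reached a wild type array and 3 alternatives, among them the deposited values (0.0136), passed it. In sh53BP1-2 the deposited values gave -0.60 for ALDH3A1 and -0.41 for AKR1B10.

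The log2 differences between the sh53BP1 hairpins lay between 0.16 (AKR1B15) and 0.69 (AKR1C4 and ALDH3A1) for the brightest probe of each gene. Of the 10 probes, 4 were higher in sh53BP1-1 than in sh53BP1-2, where 1.73% of all probes were, and none was lower, where 3.8% were. The 4 are not separate genes: 2 are probes of AKR1C2, and signal shared between the AKR1C probes was not tested. The 3 probes kept through shControl alone were above background on no sh53BP1 array. AKR1C4 read 13.19, 13.04 and 13.17 in sh53BP1-1, against 12.45, 12.47 and 12.40 in sh53BP1-2 (log2 difference 0.69, SE 0.11, limma adjusted p = 9.07e-05). ALDH3A1 was 1.61-fold higher (log2 difference 0.69, limma adjusted p = 0.00135; 0.39 in the deposited values). The brightest AKR1C2 probe read 13.88, 13.84 and 13.78 in sh53BP1-1, against 13.24, 13.35 and 13.35 in sh53BP1-2 (log2 difference 0.52, limma adjusted p = 0.0104, but 0.055 without sh53BP1-2 replicate 1). For these 3 probes the arrays did not overlap. The fourth, ILMN_1773417 of AKR1C2, had overlapping arrays, of which 2 of 3 in sh53BP1-1 and 1 of 3 in sh53BP1-2 were above background, and its call was lost under several alternatives. The log2 difference of AKR1C3 was 0.32 (limma adjusted p = 0.191).

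Ordered by mean level, the brightest probe of each gene above background had shControl first and wild type second. The genes differed in the gap between these groups, from 0.01 log2 units (AKR1C2, with overlapping arrays) to 4.25 (AKR1B10). For the brightest AKR1C2 probe the order was shControl and wild type, sh53BP1-1, sh53BP1-2, shATM-3, shATR-4, shCHK1-4, shCHK2-1 and then the 4 low lines, in which each overlapped its neighbour. For AKR1B10 it was shControl, then wild type, sh53BP1-1 and shATR-4, then shATM-3 and sh53BP1-2, shCHK2-1, shCHK1-4 and the 4 low lines, and shATR-4 thus stood among the wild type and sh53BP1 levels. Likeness was measured as the root mean square difference between the log2 profiles of a pair of genes over the 12 groups, each with its own mean removed, and is a description only. AKR1C3 and AKR1C4 differed by 0.36 and AKR1C2 and AKR1C4 by 0.50. AKR1B10 differed by 0.58 from both AKR1B15 and ALDH3A1, while AKR1B15 and AKR1C2 differed by 1.99. Within the set, the AKR1C genes and the AKR1B genes with ALDH3A1 were thus more like their own kind than like each other. Outside it, CFB (0.41) and PAPPA (0.52) were closer to AKR1B15 than AKR1B10 was. AKR1B15 and ALDH3A1 were each above background on 9 of 24 kinase arrays, and the part of this in their likeness was not tested.

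Among all other genes, CYP1B1, a cytochrome P450 of oestrogen and hydrocarbon metabolism, was most like AKR1C3 (0.41), followed by PDK4 (0.60) and ASS1 (0.65), where the median over all genes was 2.23. CYP1B1 had mean log2 signals of 10.77 in sh53BP1-1, 9.80 in sh53BP1-2, 12.67 in shControl and 11.63 in wild type, and between 6.40 and 8.72 in the kinase lines. For AKR1C2 the nearest were the keratin KRT15 (0.72), S100P (0.75) and NCCRP1 (0.80), with a median of 2.86. For AKR1B10 they were CYP4F3 (0.77), LYPD3 (0.90) and FXYD3 (0.90), with a median of 1.97. CYP4F3, a cytochrome P450 of leukotriene breakdown, averaged 7.36 in sh53BP1-1, 6.16 in sh53BP1-2, 9.28 in shControl and 7.56 in wild type, and lay between 4.64 and 6.56 in the kinase lines. For ALDH3A1 the nearest were KRT24 (0.72), GBP2 (0.76) and C1QTNF1 (0.77), with a median of 1.99. Each median was close to the spread of the gene's own profile, which a gene with a flat profile would score. That spread was 2.21 for AKR1C3, 2.85 for AKR1C2, 1.95 for AKR1B10 and 1.97 for ALDH3A1. With the deposited log2 values, 1 (AKR1B10), 3 (AKR1C2), 3 (AKR1C3) and 2 (ALDH3A1) of the 5 nearest genes were shared.

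Other known NRF2 targets, 26 of 30 listed genes with a measured probe, were mostly higher in shControl than in wild type. In shControl against wild type 21 were higher and none was lower, where 13.9% and 15.2% of all genes were, and their median log2 difference was 0.86, against -0.01 over all genes. GPX2, a glutathione peroxidase, averaged 9.64 in shControl and was above background on no wild type array (4.98). UGT1A6, a glucuronosyltransferase, averaged 8.28 in shControl and was above background on no array of the 11 other groups. NQO1, the quinone reductase, averaged 14.17 ± 0.07 in shControl, against 13.25 ± 0.08 in wild type (SD, n = 3 each). TXNRD1, a thioredoxin reductase, averaged 11.32 ± 0.12 in shControl, against 9.98 ± 0.12 in wild type (SD, n = 3 each). These targets thus shared with AKR1B10 and ALDH3A1 a higher level in shControl.

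In all 8 kinase lines 17 of the 26 targets were lower than in shControl and none was higher (18.9% and 16.6% of all genes). Among those above background, ABCC3, an exporter of conjugates and bile salts, had the largest mean log2 difference (-4.82). ABCC3 averaged 7.04 to 8.56 in the kinase lines, against 12.58 in shControl and 11.97 in wild type. Its relative ABCC2 was above background on no kinase array, and averaged 8.02 in sh53BP1-1, 7.53 in sh53BP1-2, 9.22 in shControl and 8.14 in wild type. Against wild type, 9 of the 26 were lower in all 8 lines and 2 (UGDH and SRXN1) were higher (17.3% and 14.3% of all genes). SRXN1, sulfiredoxin, averaged 9.83 to 10.36 in the kinase lines, against 10.50 in shControl and 9.38 in wild type, and so did not share the profile of the AKR genes.

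Among the kinase pairs, 11 of the 26 NRF2 targets were lower in shATM-1, shATR-3, shCHK1-3 and shCHK2-2 than in the partner line in all 4 pairs and none was higher in all 4 (9.3% and 5.8% of all genes). HMOX1, haem oxygenase, averaged 5.07 in shATM-1, against 5.86 in shATM-3, and 6.43 in shCHK2-1, against 4.67 in shCHK2-2, and was above background on no array of shATM-1 or shCHK2-2. GPX2 averaged 5.29 in shATM-1, against 8.74 in shATM-3, and 7.69 in shCHK2-1, against 6.41 in shCHK2-2. ABCC3 differed in the other direction in the CHK2 pair, 7.31 in shCHK2-1, against 7.78 in shCHK2-2. In the sh53BP1 lines 25 of the 26 were lower than in shControl in both (24.7% of all genes) and none higher, with a median log2 difference of -1.52. Against wild type, 13 were lower in both and SRXN1 was higher (20.8% and 17.4% of all genes), and 7 were lower after scaling each array by its 75th percentile. The 3 comparisons with shControl share its 3 arrays.

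**Figure D4:**
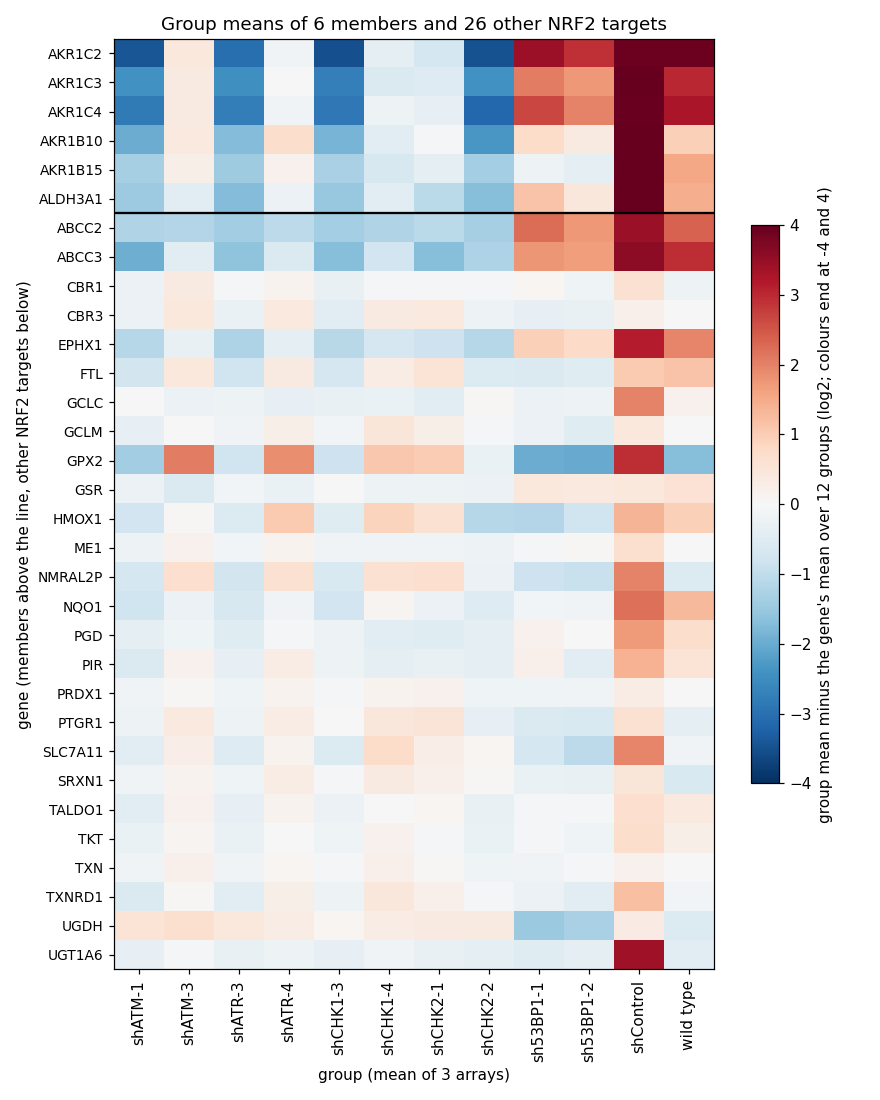
Heat map of group mean log2 signal minus the gene's mean over the 12 groups (colour, ending at -4 and 4) for 6 of the 9 genes (above the line) and the 26 other NRF2 targets (below it), by group (x axis). The shControl column is the highest for AKR1B10, AKR1B15 and ALDH3A1 and for targets such as GPX2 (9.64 in shControl) and UGT1A6 (8.28); UGDH is not, and averages 9.63 in shControl.

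Of 8 measured regulators of NRF2, 4 were higher in shControl than in wild type and 1 was lower (13.9% and 15.2% of all genes): SQSTM1, an autophagy adaptor that binds the NRF2 inhibitor KEAP1, by 0.95 log2 units, MAFG, an NRF2 partner, by 0.84, NFE2L1 by 0.44 and NFE2L2, the NRF2 gene, by 0.26. RBX1 was lower by a log2 difference of -0.28. After scaling each array by its 75th percentile, 3 of the 8 were higher in shControl. In all 8 kinase lines 3 of the 8 regulators were lower than in shControl and 0 higher (16.4% and 15.8% of all probes). In both sh53BP1 lines 5 were lower than in shControl and 1 higher (21.7% and 23.9% of all probes). SQSTM1 was among the lower ones in both comparisons (mean log2 differences of -2.21 and -2.12). The higher one was MAFF, by a mean of 1.02, and in both sh53BP1 lines it was also higher than in wild type (mean 1.30). Of the aryl hydrocarbon receptor list, 6 of 10 genes were measured, 4 of them higher in shControl than in wild type and none lower (13.9% and 15.2% of all genes). In the sh53BP1 lines 4 of the 6 were lower than in shControl in both lines (24.7% of all genes), among them CYP1A1, which averaged 8.15 in shControl and was above background on no sh53BP1 array. NQO1 is in both lists.

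Other genes of the same enzyme families give a setting for the reductases. Of other aldo-keto reductases, 4 of 8 listed had a measured probe: none passed in all 8 kinase lines against shControl (18.9% of all genes were lower and 16.6% higher), and in shControl against wild type AKR7A2 and AKR7A3 were lower (log2 differences of -0.34 and -0.46; 15.2% of all genes were lower). Counted line by line, these 4 genes had 13 calls higher than shControl and 0 lower, where 28.4% to 35.9% of all probes were higher in a line. Against wild type they had 0 calls higher and 8 lower, where 24.7% to 30.1% of all probes were lower in a line. In both sh53BP1 lines 3 of the 4 were lower than in wild type (20.8% of all genes). These were KCNAB1 (mean log2 difference -0.71), which was on no array above background in at least 1 of these lines, AKR7A2 (-0.44) and AKR7A3 (-0.29). After scaling by the 75th percentile 0 were lower in both, and against shControl 0 passed in both. AKR1D1, the steroid 5-beta-reductase best known from liver, was listed at 14.03 to 14.18 in all 12 groups, near the top of the scale, and whether a change could be seen there was not tested. Of 14 measured other aldehyde dehydrogenases, 2 were higher in shControl than in wild type (ALDH3A2, the neighbour of ALDH3A1, by 1.31 log2 units, and ALDH1A1 by 0.57) and none was lower (13.9% and 15.2% of all genes). In all 8 kinase lines 5 of the 14 were lower than in shControl and 1 was higher (18.9% and 16.6% of all genes), and in both sh53BP1 lines 9 were lower than in shControl and 1 higher (24.7% and 23.8%). Against wild type both sh53BP1 lines had 7 lower and ALDH1B1 higher (20.8% and 17.4%).

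Of 19 measured other carbonyl, retinal and polyol reductases, 6 were higher and 3 lower in shControl than in wild type (13.9% and 15.2% of all genes), and in all 8 kinase lines 5 were lower than in shControl and 1 higher (18.9% and 16.6%). In both sh53BP1 lines 5 of the 19 were higher than in shControl and 7 lower (23.9% and 21.7% of all probes). Against wild type 5 were higher in both and 3 lower (17.3% and 18% of all probes). DHRS3, a retinal reductase, had the largest of these differences, lower than in shControl (mean log2 difference -4.70) and than in wild type (-3.39). The largest in the other direction was RDH13, higher by 1.52 and 0.99. Of 15 measured genes of steroid metabolism, 4 were higher and 2 lower in shControl than in wild type (13.9% and 15.2% of all genes). Among them HSD17B2, which inactivates oestradiol and testosterone, was above background on no wild type array. It averaged 8.90 in shControl and 6.76 to 9.16 in the kinase lines, so it did not share the low level of the AKR1C genes there. In the 53BP1 pair it was above background on no array of sh53BP1-1, against 3 of 3 in sh53BP1-2 (mean 6.66), the opposite direction to AKR1C2, AKR1C4 and ALDH3A1.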

How the data were processed

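RNA of 36 cultures was read on Illumina expression arrays. The deposited signal file holds intensity for each probe, which by its values the authors had not normalized. Beside it the file headers name a detection p-value for each deposited intensity. The deposited series table holds log2 values that equalled quantile-normalized log2 intensities to within 0.0013. The scanner, software and slides are not given in the sources used here.

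Normalization was by neqc (limma 3.58.1, R 4.3.3), which subtracts background, equalises quantiles and takes log2, with an offset of 16 and control levels derived from the detection p. Kept were 18905 of 47231 probes, those with a detection p under 0.01 on every array of some group. In limma, 1 linear model with 12 group means was used, and its moderated tests were corrected with the Benjamini-Hochberg method over the kept probes of a contrast, at a threshold of 0.05. For gene lists and likeness, the brightest probe stood for a gene. The fit was tested on simulated data.

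The members and gene lists were chosen with earlier results of these data known. Every probe of the 9 genes could be named. From each list, so could up to 5 genes in each direction with the largest mean difference among those called in every line of a comparison, and for likeness the 5 nearest genes. The hairpin targets, MTAP, CDKN2A and cell type markers were named as checks. TXNRD1 and AKR1D1 are outside the rule and were taken as examples once their values had been seen. Promoter sequences are from RefSeq. Replicate numbers did not pair the arrays: residuals of arrays with the same number correlated at -0.00183 on average (-0.234 to 0.372), against 0.00096 for other numbers. Alternatives were the deposited values, scaling by the 75th percentile, no or a looser filter, 1 probe per gene, only the groups compared, the replicate block and each array left out.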

Additional observations from a re-analysis of the deposited data

Results flagged for a closer look

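Lines that carry different hairpins to one target differed past the threshold of the fit, for 6 probes in each kinase pair and 4 in the 53BP1 pair. The log2 difference of the brightest AKR1C2 probe was -3.86 for shATM-1 minus shATM-3, -2.88 for shATR-3 minus shATR-4, -3.18 for shCHK1-3 minus shCHK1-4 and 2.79 for shCHK2-1 minus shCHK2-2. In the same order it was -2.77, -2.43, -2.16 and 1.91 for AKR1C3, and -3.20, -2.60, -2.67 and 2.79 for AKR1C4. It was -2.37, -2.44, -1.46 and 2.29 for AKR1B10, -1.57, -1.61, -0.67 and 0.99 for AKR1B15, and -1.02, -1.48, -1.09 and 0.63 for ALDH3A1, and the lower line of these pairs was not above background on at least 1 array: these are fitted differences against lines at background, not measured sizes. The kinase pairs are given as a description. For sh53BP1-1 minus sh53BP1-2 the differences were 0.52 and 0.73 for the AKR1C2 probes ILMN_2412336 and ILMN_1773417, 0.69 for AKR1C4 and 0.69 for ALDH3A1.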

How the results depend on the processing

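With 1 probe per gene 6 probes remained, and the counts of calls were 5 for shControl against wild type, 48 over the 8 kinase lines and 12 over the sh53BP1 lines against shControl, in place of 9, 80 and 20; fewer probes were counted. The replicate block gave 9, 80, 69, 20, 12, 24 and 4 calls, in place of 9, 80, 68, 20, 12, 24 and 4 (shControl against wild type; kinase lines against shControl and wild type; sh53BP1 lines against shControl and wild type; kinase pairs; 53BP1 pair). Leaving out each array gave 9, 80, 60 to 71, 20, 11 to 13, 24 to 25 and 3 to 4. Scaled by the 75th percentile, AKR1C2 ILMN_1773417, not above background on any kinase array, changed sign in the ATM (0.14), CHK1 (0.033) and CHK2 (-0.14) pairs, all uncalled. In the CHK2 pair leaving out 1 array moved it between -0.037 and 0.092. The difference of AKR1C2 ILMN_2412336 between shControl and wild type lay between -0.025 and 0.065 when 1 array was left out, and that of AKR1B15 in the 53BP1 pair between -0.12 and 0.35. ILMN_1773417 lost its call in the 53BP1 pair with the deposited values (adjusted p = 0.0545), with only the groups compared (0.212) and without sh53BP1-1 replicate 1 (0.0625) or sh53BP1-2 replicate 2 (0.0627). ILMN_2412336 lost its call in sh53BP1-1 against wild type under 75th-percentile scaling (-0.32, adjusted p = 0.0618). With the deposited values AKR1C3 passed in the 53BP1 pair (0.31, adjusted p = 0.0314) and ALDH3A1 in sh53BP1-1 against wild type (0.0136; also 0.0489 with 1 probe per gene and 0.0112 with only the groups compared). AKR1B10 in shATR-4 against wild type passed with only the groups compared (0.0312). The deposited values, which keep the background, gave a median of 0.774 times the size of 171 called differences (0.317 to 0.993), and 64 of them moved by over 1.5 times. The causes were not tested.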
